A study of Oryza sativa with 6 samples.

Results

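Roots of rice seedlings exposed to mercury (Hg) for a short time were compared with roots kept in water, on the 3 arrays whose titles name short Hg exposures, of 6 arrays in all. Seedlings of Oryza sativa cv. TN-67 were 6 days old. Root tips were the source of the RNA, as the methods state. Hg-treated RNA of 1 h and 3 h was pooled before labeling, so the values do not separate these times. Each array carried Cy5-labeled RNA of Hg-treated roots and Cy3-labeled RNA of water-treated (control) roots of 1 biological replicate. The other 3 arrays compared 24 h of Hg with water in the same way, and whether both exposures share control RNA is not stated. The dose was 25 µM Hg, although the sample labels write it in mM. No array had its dyes swapped, so a dye bias of a probe cannot be told apart from an effect of Hg. Replicate 1 was on a slide of its own and replicates 2 and 3 shared another.

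Hg ions bind thiol groups of cysteine residues and of glutathione, and thereby disturb proteins, membranes and water channels. Plant cells under metal stress are known to hold the metal with glutathione, phytochelatins and metallothioneins, to move conjugates out of the cytosol, and to make chaperones and protective secondary metabolites. The stress hormones jasmonate, ethylene and abscisic acid (ABA) and the calcium and mitogen-activated protein kinase (MAPK) cascades relay many such signals in roots.

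The log2 ratio of the Hg signal over the water signal was taken for each locus from its brightest probe, and the mean of the 3 arrays was tested against 0 with limma in a fit to all 6 arrays. A gene is called upregulated or downregulated where the adjusted p (Benjamini-Hochberg over all genes tested) is under 0.05 and the change is at least 2-fold. Of 21816 genes tested, 2529 (11.6%) were upregulated and 1763 (8.08%) were downregulated with short-term Hg exposure. These shares are the background against which the counts of each gene family below are read. Upregulation reached further than downregulation. At least an 8-fold change was seen in 456 upregulated and 10 downregulated genes, and at least a 16-fold change in 180 and 0 genes. The median log2 ratio over all genes was -0.13. Normexp background correction with loess in place of the software's processed signals shifted the gene medians up by 0.14, called 2085 genes up (9.56%) and 442 down (2.03%), and so raised the upregulated share of all calls from 58.9% to 82.5%. No called gene was called in the opposite direction there. Of the calls, 1969 up and 438 down were kept. The downregulated counts below are therefore given with both settings where they differ.

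The 3 arrays had between 29106 and 34215 spots well above background in the Hg channel and between 28674 and 33846 in the water channel, and the number of arrays limits the precision. Across genes, the ratios of any pair of these arrays correlated with r between 0.912 and 0.918, a description over genes, which are not independent replicates. The probes of the root aquaporins OsNIP2;1, OsPIP2;3, OsPIP2;5 and OsTIP2;1 were well above background in both channels on all 3 arrays, as were those of the pollen aquaporin OsTIP5;1, the seed regulator OsVP1 and a photosystem I subunit. The seed aquaporins OsTIP3;1 and OsTIP3;2 did not pass the signal filter. The part of other tissues in the results was not tested. In bulk tissue, fewer cells of a type and less RNA per cell cannot be told apart. Cross-hybridization between near-identical copies was not checked.

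The oligonucleotides that identify 4 of the transcripts described below are the primer pairs the study designed for its PCR, shown here because these genes carry the chaperone and aromatic amino acid results. They are written 5′ to 3′ and the chromosome is that of the locus. The first pair belongs to a small heat shock protein gene on chromosome 2, the second to a gene of 3-deoxy-D-arabino-heptulosonate 7-phosphate (DAHP) synthase on chromosome 3, the third to tryptophan synthase alpha on chromosome 7 and the last to indole-3-glycerol phosphate synthase on chromosome 9.
Os02g0782500 forward: acatccaggtgacgctggag
Os02g0782500 reverse: acttggtcttcttctccggc
Os03g0389700 forward: gccacccttcggtgtctgaa
Os03g0389700 reverse: ccaccaacaaatggaataggcg
Os07g0182100 forward: gaagagctagccaagagcct
Os07g0182100 reverse: acagacaacagtaaccccga
Os09g0255400 forward: tacgtgcagaatgctggtgt
Os09g0255400 reverse: cagtaactaccgcgcgtatc

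Of 2707 called genes with 1 direction and both channels well above background on all 3 arrays, 1208 had a usable description in the study's tables. The others could not enter the ranking that follows. The gene with the highest mean ratio among described genes that were well above background in both channels on all 3 arrays was Os03g0267000, which encodes the small heat shock protein Oshsp18.0, a chaperone that holds unfolding proteins. Its log2 ratio was 7.04, 6.68 and 7.66 on replicates 1, 2 and 3, a mean 139.7-fold increase (adjusted p = 2.6e-05, limma). Its neighbour Os03g0266900, Oshsp17.3, stood at 6.48, 5.97 and 5.68. A receptor kinase-like gene, Os08g0374600, rose to 5.82, 5.57 and 7.15. The cytochrome P450 gene CYP99A1 (Os04g0180400), a member of a diterpenoid gene cluster in rice, stood at 7.06, 6.06 and 5.19. Every array of these 4 genes lay above 5 on the log2 scale. The ranges of the last 3 overlapped, and that of Oshsp18.0 overlapped those of Os08g0374600 and CYP99A1.

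The other highest genes included both loci described as PGPS/D12, Os03g0830500 at 5.61, 5.01 and 5.90 and Os03g0830300 at 5.77, 4.69 and 5.93. Peroxidases, which use hydrogen peroxide to oxidize phenolics and wall polymers, were represented by Os04g0688300 (5.32, 5.20 and 5.39) and by Os01g0963000, peroxidase BP 1 (5.01, 5.13 and 4.58). A subtilisin and chymotrypsin inhibitor, Os01g0615100, gave the closest arrays of this group, with 4.98, 5.02 and 4.98. A pair of genes with a plastocyanin-like copper-binding domain, Os08g0482600 and Os08g0138200, had means of 5.57 ± 0.56 and 4.89 ± 0.59 (SD, n = 3 arrays). A C2H2 zinc finger gene, Os03g0437200, had a mean of 4.90 ± 0.31. The adjusted p of the 15 highest genes lay between 7.8e-06 and 0.00095 in the limma fit.

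**Figure D1:**
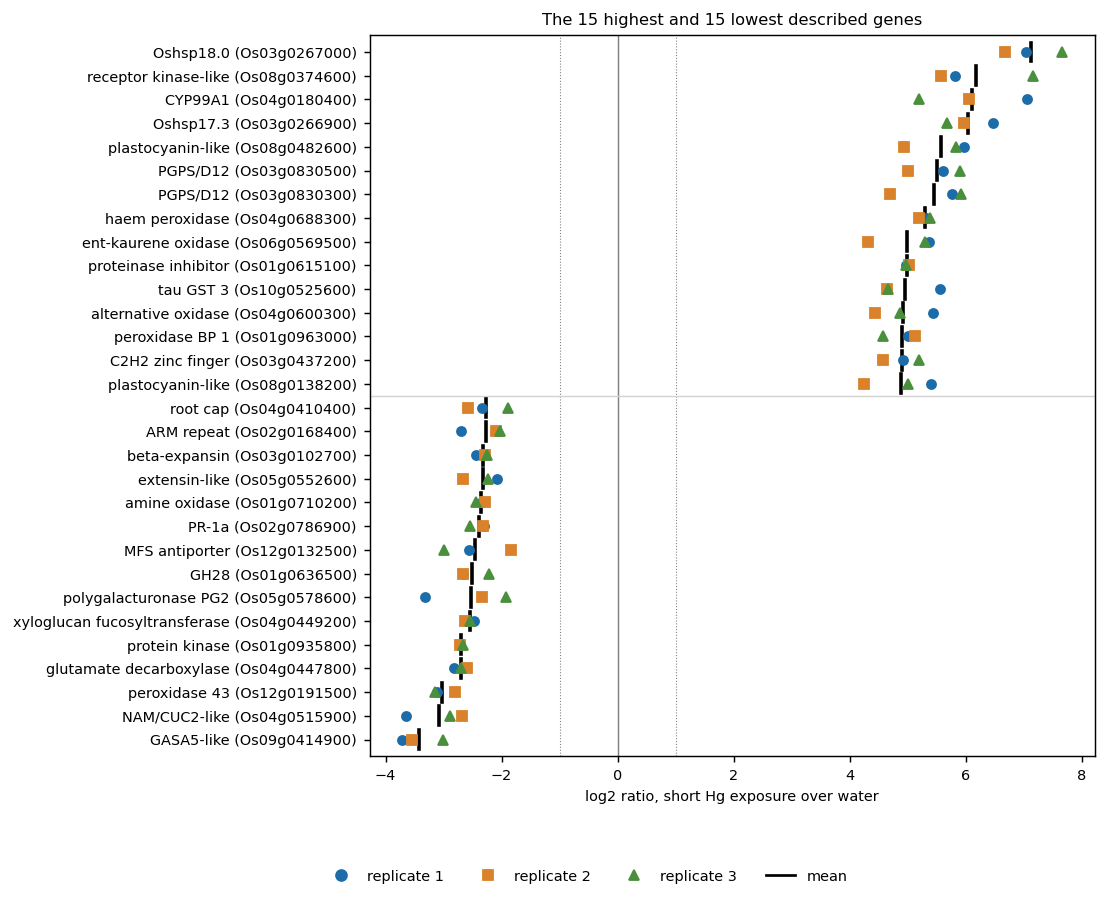
Log2 ratio of short Hg exposure over water (horizontal axis) for the 15 highest and 15 lowest described genes with both channels well above background, one symbol per replicate array, a black bar for the mean and dotted lines at a 2-fold change. The highest genes lie between 4.25 and 7.66 and the lowest between -3.71 and -1.83, and no array of either set crosses the 2-fold lines.

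Chaperone genes other than Oshsp18.0 and Oshsp17.3 also rose. Of the 7 small heat shock protein genes in the study's list of changed genes, 6 were upregulated. This list, like the others below that come from descriptions in that list, was chosen by the study on these arrays and is not independent evidence of its direction. Os03g0245800, described as Hsp26, had a mean log2 ratio of 5.32 ± 0.46, with its water signal well above background on 1 of 3 arrays, and a mean of 3.32 with normexp and loess. Os11g0244200 had 3.55, 3.27 and 4.40, with the water signal well above background on 2 arrays, and a mean of 3.14 with normexp and loess. Os02g0782500, of class CIII, had 1.84, 2.48 and 2.48, and Os01g0840200 had 1.06, 1.05 and 1.09. The last member, Os03g0266300, missed the 2-fold threshold with its brightest probe (mean 0.75 ± 0.23), although 8 of its 9 probes were called up and their mean gave 3.90.

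Heat shock factors bind heat shock elements in chaperone promoters. All 4 of the factor genes in the study's list were upregulated. Os03g0745000 reached 3.54, 2.67 and 3.99, a 10.5-fold increase, while Os08g0546800 (RHSF2) stood at 1.77, 1.73 and 1.99. Os09g0456800, described as Spl7, rose 2.29-fold. Os01g0749300 lay at the threshold with 0.98, 1.04 and 1.01 and fell below it without replicate 2 (0.99). Among Hsp70, Hsp90, Hsp100 and DnaJ genes of the list, 12 of 18 were upregulated and 5 were downregulated (3 with normexp and loess). The co-chaperone genes Os06g0650900 and Os03g0776900 rose 9.43-fold and 7.99-fold, and the Hsp70 gene Os03g0276500 rose 4.92-fold.

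Glutathione S-transferases join glutathione to electrophiles, and all 16 that the study listed were upregulated. The tau class gene Os10g0525600 gave 5.55, 4.65 and 4.67. Os10g0527400, described as TSI-1, gave 5.06, 4.48 and 4.60, and Os10g0530600 (GST 20) gave 3.69, 3.15 and 3.46. The lowest array of each stood at least 8-fold above water. Alternative oxidase carries electrons past the cytochrome steps of the mitochondrial respiratory chain, and all 4 of its genes that the study listed were upregulated. Os04g0600300 and its neighbour Os04g0600200 (AOX1c) rose 30.1-fold and 8.60-fold. Os02g0700400 (AOX1) and Os02g0318100 (AOX1a) rose 2.83-fold and 2.26-fold.

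Transporters that move conjugates and organic ions were upregulated in part. Of 88 ABC transporter genes tested, 29 (33.0%) were upregulated and 10 were downregulated (1 with normexp and loess). Os01g0609300 (PDR3), of the pleiotropic drug resistance type, had 5.21, 3.35 and 3.82, and its neighbour Os01g0609200 had 3.97, 2.48 and 3.33. Replicate 1 was highest and replicate 2 lowest for both. Os04g0209200, described as an Arabidopsis MRP4-like carrier of glutathione conjugates, rose 8.88-fold. Of 38 tested genes in the MOP superfamily, which holds the MATE extrusion carriers, 9 (23.7%) were upregulated and 3 downregulated (0 with normexp and loess). The MATE genes Os10g0345100 and Os04g0373400 had means of 3.54 ± 0.49 and 2.68 ± 0.35. Of 14 listed genes with a heavy metal-associated domain, 8 were upregulated and 6 were downregulated (4 with normexp and loess). Os02g0818900 and Os04g0469000 rose 8.53-fold and 8.19-fold, and Os03g0152000 had a mean of 2.63 ± 0.18.

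The ATP sulfurylase gene Os04g0111200, which encodes the first enzyme of sulfate assimilation, stood at 2.71, 2.47 and 2.55 (adjusted p = 3.3e-05, limma). The sulfate transporter gene Os01g0719300 stood at 2.67, 2.68 and 1.56, with replicate 3 lowest. Of 13 tested genes of the SulP sulfate transporter family, to which it belongs, 3 were upregulated and 4 were downregulated (4 and 0 with normexp and loess). Os04g0652400 of this family fell to -1.56, -1.48 and -1.26, a call that was lost with normexp and loess.

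Metallothioneins are small cysteine-rich proteins that bind metals, and most of their genes did not reach a 2-fold change at this time. Of 11 tested metallothionein genes, 1 (9.09%) was upregulated, near the 11.6% of all genes, and 0 were downregulated. OsMT1-4a (Os12g0570700) rose to 2.18, 2.19 and 1.74, a 4.10-fold increase (adjusted p = 0.0010, limma). Its neighbour OsMT1-4c (Os12g0568200) stood at 0.98, 0.75 and 0.49, and OsMT1-4b (Os12g0568500) at -0.78, -0.80 and -0.95. The ranges of these 3 genes did not overlap. OsMT1-1a and OsMT1-1b had means of -0.84 ± 0.17 and -0.69 ± 0.20, below the 2-fold threshold.

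The 10 listed genes of aromatic amino acid synthesis, from the start of the shikimate pathway to tryptophan, were all upregulated, with a median log2 ratio of 1.62 against -0.13 for all genes tested. The study chose this list on these arrays. DAHP synthase, which commits carbon to the pathway, was represented by Os03g0389700 (2.52, 2.76 and 2.53) and Os07g0622200 (1.34, 1.52 and 1.67). Dehydroquinate synthase (Os09g0539100) stood at 1.42 and 1.35 on replicates 2 and 3. Its spot on replicate 1 was dropped as an outlier, so that the fit used 2 arrays. Shikimate kinase (Os02g0749300) gave 1.71, 1.54 and 1.92. The EPSP synthase gene Os06g0133900 gave 1.12, 1.27 and 1.33, the lowest of the group. The ratios of the shikimate genes therefore spread from about the threshold to 6.07-fold for the first DAHP synthase gene.

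In the tryptophan branch, the anthranilate synthase gene OsASA2 (Os03g0264400) had 1.62 and 1.21 on replicates 2 and 3, with replicate 1 dropped. Indole-3-glycerol phosphate synthase (Os09g0255400) was not well above background in the water channel on any array, and was at least 6.15-fold higher with Hg (adjusted p = 7.7e-05, limma). Such bounds set the mean of the bright channel against the lowest detectable signal of the dim channel, after loess and between-array scaling of each channel, and remain open to dye bias. Tryptophan synthase alpha (Os07g0182100) reached 3.11, 2.57 and 2.98, and tryptophan synthase beta (Os08g0135900) 1.54, 1.40 and 1.56. The alpha subunit gene was above the beta subunit gene on every array. In the branch to phenylalanine, prephenate dehydratase (Os04g0406600) had 1.56, 1.75 and 2.09.

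Phenylpropanoid genes, which turn phenylalanine into phenolic compounds and lignin precursors, followed with 9 of 10 listed genes upregulated. Phenylalanine ammonia-lyase, the entry enzyme, was represented by Os04g0518400 (3.79, 3.68 and 4.07), Os05g0427400 (2.16, 2.83 and 2.93) and Os02g0627100 (2.75, 2.26 and 2.44). Os04g0518400 exceeded both others on every array. The 4-coumarate-CoA ligase gene Os08g0448000 rose 9.84-fold. Cinnamate 4-hydroxylase (Os05g0320700) rose 2.30-fold, and fell below the threshold in the mean of its 2 probes (0.95). A pair of agmatine coumaroyltransferase genes, which make hydroxycinnamic acid amides, had means of 4.64 ± 0.24 (Os04g0664500, with the water signal well above background on 2 arrays and a mean of 3.15 with normexp and loess) and 3.21 ± 0.27 (Os04g0664600). The chalcone synthase gene Os07g0525500, at the start of the flavonoid branch, was at least 9.99-fold higher, with its water signal not well above background on any array. Caffeoyl-CoA O-methyltransferase (Os08g0498100), of the lignin branch, had a mean of 0.65 ± 0.21 with its brightest probe and missed the threshold, although 2 of its 4 probes were called up.

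Diterpenoid phytoalexins are antimicrobial compounds that rice makes from geranylgeranyl diphosphate, and all 6 of the listed genes were upregulated. The ent-kaurene oxidase-like genes Os06g0569500 and Os06g0568600 rose 31.9-fold and 3.05-fold. The latter was not called in the mean of its 2 probes (0.72, adjusted p = 0.11). Copalyl diphosphate synthase (Os04g0178300) had 4.25 and 4.15 on replicates 2 and 3. The terpene synthase gene Os04g0179700 had 7.66 and 7.16 on the same arrays, with its water signal well above background on 1 of them, and a mean of 5.86 with normexp and loess. Both lie near CYP99A1 by locus number. Os11g0474800, terpene synthase-like, was lower, with 2.16, 1.93 and 1.47.

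**Figure D2:**
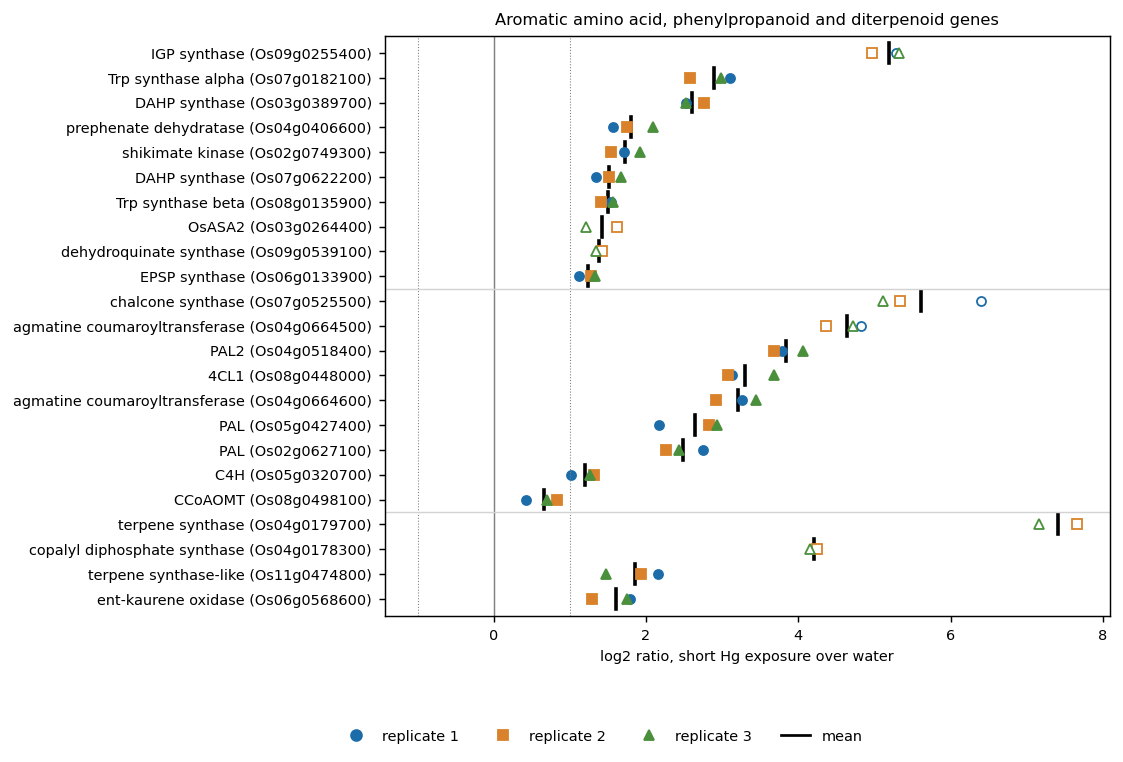
Log2 ratio of short Hg exposure over water (horizontal axis) for the listed genes of aromatic amino acid (top), phenylpropanoid (middle) and diterpenoid (bottom) synthesis that the text names, one symbol per replicate array, a black bar for the mean and dotted lines at a 2-fold change. Open symbols mark genes with a channel not well above background on at least 1 array or with a dropped spot; every point lies above 0 and 1 mean, that of caffeoyl-CoA O-methyltransferase at 0.65, lies below the 2-fold line.

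Jasmonate is made from plastid lipids through lipases, lipoxygenase, allene oxide synthase and cyclase, and 12-oxophytodienoate reductase. Of 18 tested genes of its synthesis, 10 (55.6%) were upregulated and 0 were downregulated (8 and 0 with normexp and loess). The lipase gene OsDAD1;2 (Os08g0143600) had a mean of 5.50 ± 0.56, with the water signal well above background on 1 array, and of 2.97 with normexp and loess. The lipoxygenase gene OsLOX2;1 (Os08g0508800) was at least 3.93-fold higher, with its water signal not well above background, and OsLOX2;3 (Os08g0509100) stood at 2.57, 2.87 and 3.08, with a mean of 1.70 with normexp and loess. OsAOS2 (Os03g0767000) had 2.01, 1.78 and 3.04, and OsAOC (Os03g0438100) 0.81, 0.99 and 1.32. Replicate 3 was highest for both, and OsAOC was not called without it (0.90). OsOPR7 (Os08g0459600), of the reductase type that acts in jasmonate synthesis, reached 2.02-fold and missed the threshold with normexp and loess (0.97) and without replicate 1 (0.98). A tandem pair of other reductase genes, Os06g0216300 and Os06g0216200, rose to means of 3.04 ± 0.12 and 2.80 ± 0.03. Restricting the test to genes with both channels well above background left 5 called jasmonate synthesis genes. Over all genes, that restriction called 1637 up of 17980 tested. The number of jasmonate genes tested there is not given, so the count is not a share.

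JAZ proteins repress jasmonate-responsive transcription until they are degraded, and their own genes respond to jasmonate. Of 8 tested JAZ genes, 7 (87.5%) were upregulated. OsJAZ2 (Os10g0392400) gave 4.35, 3.00 and 4.46. OsJAZ1 (Os03g0180900) gave 3.82, 3.23 and 4.36, and its neighbours OsJAZ6 (Os03g0180800) and OsJAZ5 (Os03g0181100) gave 2.71, 2.79 and 4.57, and 2.18, 1.71 and 2.86. Replicate 3 was the highest array for each of these 4 genes. OsJAZ9 had a mean of 3.23 ± 0.88 (water signal well above background on 1 array, and 1.83 with normexp and loess) and OsJAZ7 a mean of 2.30 ± 0.57. OsJAZ4 was 2.24-fold higher and was not called without replicate 3 (0.96), and OsJAZ3 missed the threshold at 0.97 ± 0.09 but passed it with normexp and loess (1.06).

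Ethylene is made from S-adenosylmethionine by ACC synthase and ACC oxidase. Of 10 tested genes of its synthesis, 5 (50.0%) were upregulated and 1 was downregulated (4 and 0 with normexp and loess). OsACS2 (Os04g0578000) had nearly the same ratio on every array, 3.29, 3.32 and 3.30. OsACO5 (Os05g0149400) stood at 4.33, 4.10 and 4.38, and OsACO4 (Os11g0186900) at 2.04, 1.30 and 1.82. OsACS5 (Os01g0192900) went the other way, with -1.08, -1.49 and -0.56. Its call was lost with normexp and loess (-0.71), with array centring (-0.92) and without replicate 2 (-0.82). With both channels required above background, 3 genes were called up, beside 1637 of 17980 tested over all genes. The number of ethylene genes tested there is not given.

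In ABA synthesis, the step that 9-cis-epoxycarotenoid dioxygenase catalyses is known as rate-limiting. OsNCED2 (Os12g0617400) rose to 5.24, 4.20 and 4.89, with the water signal well above background on 2 arrays, and had a mean of 3.47 with normexp and loess. OsNCED3 (Os07g0154100) was at least 2.69-fold higher, with no array above background in water, and OsNCED1 (Os03g0645900) had 0.87 ± 0.07 and missed the threshold. OsNCED2 and OsNCED3 were the 2 upregulated genes among 9 tested for ABA synthesis, with 1 downregulated (0 with normexp and loess). Neither enters a test restricted to genes with both channels well above background. Among the PP2C phosphatases that act as negative regulators of ABA signaling, 3 of 7 were upregulated. OsPP2C4 (Os03g0268600) had 3.32, 3.12 and 5.34, with the water signal well above background on 1 array, and a mean of 2.08 with normexp and loess. OsPP2C3 and OsPP2C5 lay near the threshold at 2.30-fold and 2.04-fold. The call of OsPP2C3 was lost without replicate 1 (1.00), and that of OsPP2C5 with normexp and loess (0.96) and without replicate 3 (0.83, adjusted p = 0.052). The tandem phospholipase D genes OsPLDalpha6 (Os06g0604200) and OsPLDalpha7 (Os06g0604300) had means of 3.73 ± 0.44 and 2.99 ± 0.41.

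GA20ox1 (Os03g0856700) and GA3ox2 (Os01g0177400), of the last steps of gibberellin synthesis, were the 2 downregulated of 6 tested, with 0 upregulated. GA20ox1 fell to -1.70, -1.96 and -1.96. GA3ox2 gave -0.84, -2.16 and -1.59, with the Hg signal well above background on 2 arrays, and missed the 2-fold threshold with normexp and loess (-0.94). Of 8 tested genes of gibberellin deactivation, 2 (25.0%) were upregulated. GA2ox3 (Os01g0757200) stood at 3.50, 1.87 and 2.73 and GA2ox9 (Os02g0630300) at 3.29, 1.38 and 1.18. Replicate 1 was far above the other arrays for GA2ox9. For cytokinin, the synthesis gene OSIPT3 (Os05g0312000) rose 3.30-fold. Of 6 tested genes of cytokinin degradation, 2 were upregulated and 1 was downregulated, also with normexp and loess. OsCKX5 (Os01g0775400) stood at 2.02, 0.89 and 2.88 and OsCKX2 (Os01g0197600) at a mean of -1.99 ± 0.44, below 0 on all 3 arrays. The other upregulated gene, Os01g0940000, had 4.66, 3.18 and 5.15, with the water signal well above background on 1 array, and was named after its values were seen.

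**Figure D3:**
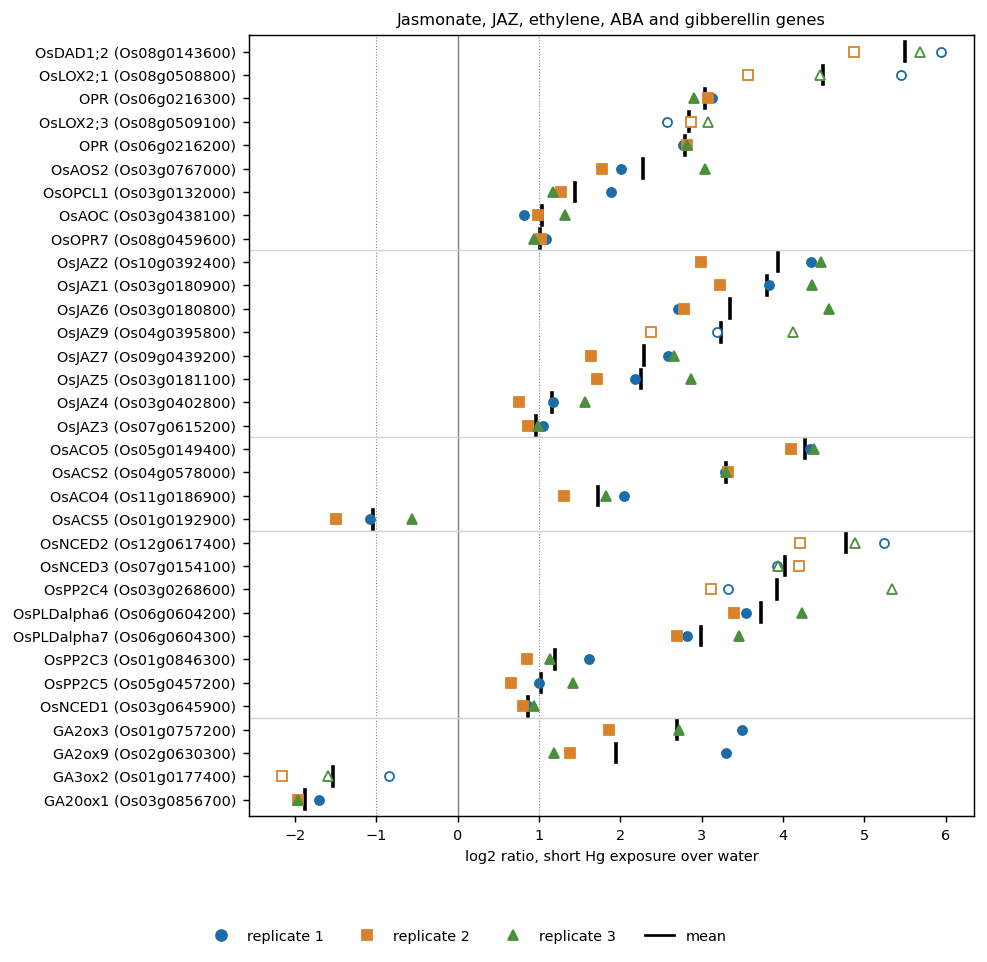
Log2 ratio of short Hg exposure over water (horizontal axis) for hormone genes that the text names, with one symbol per replicate array. From top to bottom they are of jasmonate synthesis, JAZ repressors, ethylene synthesis, ABA synthesis and signaling, and gibberellin synthesis and deactivation. A black bar marks the mean and dotted lines a 2-fold change. Open symbols mark genes with a channel not well above background on at least 1 array. OsACS5, GA3ox2 and GA20ox1 lie below 0 and every other plotted gene lies above 0 on all 3 arrays. Other tested genes of these families are not shown, and some of them lay below 0, such as OsJMT1, OsACO7 and OsABA2.

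Calcium sensors and protein kinases were changed in both directions. Of 30 tested calmodulin and calmodulin-like genes, 10 (33.3%) were upregulated and 3 were downregulated (1 with normexp and loess). OsCML31 (Os01g0955100) rose to 3.96, 3.37 and 4.12, and OsCML15 (Os05g0380900) to 2.88, 2.80 and 2.76. OsCML17 (Os02g0606600) fell to -2.41, -2.45 and -2.59. The plasma membrane calcium pump gene Os03g0203700, whose product removes calcium from the cytosol, stood at 2.63, 1.92 and 2.62, and 6 of 37 P-type ATPase genes (16.2%) were upregulated. Of 23 calcium-dependent protein kinase genes, 4 were upregulated, OsCPK4 and OsCPK20 among them at 3.45-fold and 3.15-fold, and 1 was downregulated (0 with normexp and loess). The CIPK kinases, with 1 up and 3 down of 28 (1 and 0 with normexp and loess), stayed near the background.

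MAPK cascades pass signals from MAPKKK through MAPKK to MAPK. Of 63 tested MAPKKK genes, 12 (19.0%) were upregulated and 3 were downregulated (0 with normexp and loess). The neighbours MAPKKK62 (Os01g0699600) and MAPKKK70 (Os01g0699500) stood at 3.67, 3.78 and 4.32 and at 3.21, 3.27 and 3.38. Among 6 MAPKK genes, MKK10-2 (Os03g0225100) rose 3.17-fold and MKK4 (Os02g0787300) rose 2.22-fold. The call of MKK4 was lost with normexp and loess (0.90) and without replicate 3 (0.82). Of 16 MAPK genes, 2 (12.5%) were upregulated and 1 (6.25%) was downregulated (3 and 0 with normexp and loess). These shares were near the 11.6% and 8.08% of all genes. The table's MPK6 (Os03g0285800), described as MAPK5a, rose to 2.20, 2.06 and 2.42 and MPK13 (Os02g0135200) to 1.77, 1.49 and 1.37. MPK12 (Os05g0576800) fell to -1.47, -1.08 and -1.11, and missed the threshold with normexp and loess (-0.96).

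Transcription factor genes were upregulated more often than downregulated in the AP2/ERF family, in which many members respond to ethylene or stress. Of 103 tested AP2/ERF genes, 36 were upregulated and 3 were downregulated (1 with normexp and loess), against 11.6% and 8.08% of all genes. AP2/ERF-148 (Os09g0572000) gave 4.45, 3.79 and 4.39, AP2/ERF-58 (Os03g0860100) 4.52, 3.31 and 3.89, and AP2/ERF-29 (Os02g0654700) 4.33, 2.84 and 3.66. Replicate 2 was the lowest array of all 3. Of 15 listed WRKY genes, a family known from defence responses, 13 were upregulated. WRKY transcription factor 10 (Os05g0537100) had a mean of 4.45 ± 0.42 and WRKY transcription factor 34 (Os01g0626400) of 3.02 ± 0.33. MYB1 (Os02g0624300) rose 26.8-fold. The NAC genes Os01g0816100 and OsNAC6 (Os03g0815100), the latter known from drought and salt responses of rice, rose 18.2-fold and 6.78-fold.

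**Figure D4:**
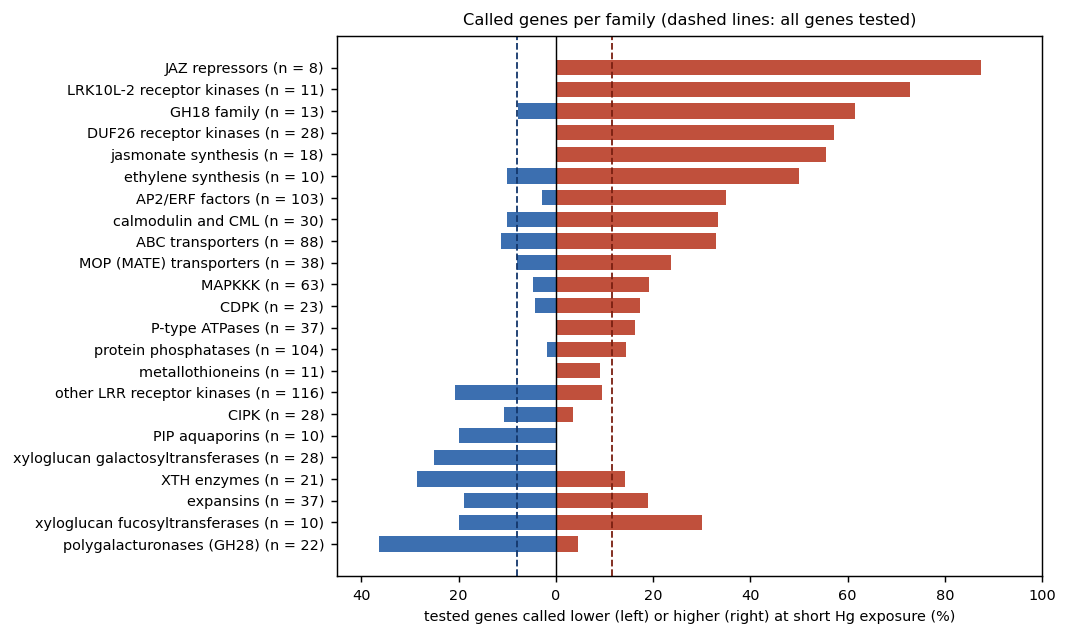
Share of the tested genes of each family called lower (left of 0, blue) or higher (right of 0, red) with short Hg exposure, in percent, with the number tested in brackets and dashed lines at the shares of all 21816 genes (8.08% lower, 11.6% higher). The JAZ repressors reach 87.5% higher and the metallothioneins, at 9.09%, lie below the line, while the polygalacturonases reach 36.4% lower; with normexp and loess 3 of their 8 downregulated genes were called.

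Aquaporins let water and small solutes through membranes, and Hg is known to block many of them. All 10 tested plasma membrane intrinsic protein (PIP) genes had a ratio under 0 with an adjusted p under 0.05 in the limma fit, and the same held with normexp and loess and with array centring. By the adjusted p alone, 40.9% of all genes tested lay below 0. The median of the PIP genes was -0.89, against -0.13 for all genes. The 2 that reached a 2-fold change were OsPIP2;3 (Os04g0521100), at -1.65, -1.42 and -1.75, and OsPIP2;5 (Os07g0448400), at -1.49, -1.15 and -1.40. OsPIP2;5 missed the threshold with normexp and loess (-0.69). OsPIP2;2 and OsPIP1;1 came next, with means of -0.95 ± 0.01 and -0.91 ± 0.04, and 1 of the 2 probes of OsPIP2;2 was called down. OsPIP1;3 and OsPIP2;4 had smaller changes, with means of -0.70 ± 0.14 and -0.44 ± 0.16.

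The other aquaporin groups were split. OsNIP2;1 (Os02g0745100), the silicon channel of rice roots, stood at -1.37, -1.36 and -1.79, and OsNIP1;3 (Os05g0205000) at 1.51, 0.88 and 1.66, with the other 4 tested NIP genes not called. The tonoplast gene OsTIP1;2 (Os01g0975900) had -1.06, -0.98 and -1.40 and was the single called gene of 7. It missed the threshold with normexp and loess (-0.83), and 1 of its 2 probes was called down.

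Among called, described genes with both channels well above background, the lowest was the GASA5-like gene Os09g0414900, of a family of small cysteine-rich proteins named for their response to gibberellin, at -3.71, -3.55 and -3.01 (adjusted p = 5.7e-05, limma). The NAM/CUC2-like gene Os04g0515900, of the NAC family, had -3.65, -2.68 and -2.89. Peroxidase 43 (Os12g0191500) had -3.12, -2.80 and -3.14, whereas other peroxidases were among the highest genes. Glutamate decarboxylase (Os04g0447800), which makes gamma-aminobutyrate, had -2.83, -2.60 and -2.70. The protein kinase gene Os01g0935800 had -2.72, -2.72 and -2.67. All 15 lowest genes kept their call with normexp and loess, where their means lay between -2.88 and -1.58.

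Several of the lowest genes have descriptions related to the cell wall. They included a xyloglucan fucosyltransferase (Os04g0449200; -2.47, -2.62 and -2.54), the polygalacturonase PG2 (Os05g0578600; -3.32, -2.34 and -1.92), a second family 28 glycoside hydrolase (Os01g0636500; -2.66, -2.67 and -2.22), an extensin-like gene (Os05g0552600; -2.09, -2.67 and -2.23) and a beta-expansin (Os03g0102700; -2.44, -2.29 and -2.25). Of 22 tested polygalacturonase genes, whose products cut pectin, 8 (36.4%) were downregulated and 1 upregulated (3 and 1 with normexp and loess). Of 28 xyloglucan galactosyltransferase genes, 7 (25.0%) were downregulated and 0 upregulated, but 1 was downregulated with normexp and loess. Of 21 xyloglucan transglucosylase/hydrolase (XTH) genes, 6 (28.6%) were downregulated and 3 upregulated (2 and 3 with normexp and loess). Expansins, which loosen walls, gave 7 up and 7 down of 37 (9 and 4 with normexp and loess), and xyloglucan fucosyltransferases 3 up and 2 down of 10 (2 and 1 with normexp and loess). Of 13 tested genes of glycoside hydrolase family 18, which the family table calls yieldins, 8 (61.5%) were upregulated and 1 downregulated (8 and 0 with normexp and loess). The upregulated Os01g0660200, Os01g0860400 and Os06g0356800 of this family are described as chitinases.

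Among the other lowest genes, the PR-1a gene Os02g0786900 stood at -2.30, -2.33 and -2.55 and an amine oxidase gene, Os01g0710200, at -2.34, -2.29 and -2.45. A root cap family gene (Os04g0410400) had -2.34, -2.57 and -1.89, an ARM repeat gene (Os02g0168400) -2.69, -2.10 and -2.03, and a major facilitator antiporter gene (Os12g0132500) -2.57, -1.83 and -2.99. The spread between arrays was smaller than the change for each of them.

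Tubulin and cyclin genes fell by about 2-fold to 3-fold. The 4 listed beta-tubulin genes, which encode a subunit of microtubules, were all downregulated, with Os03g0105600 at -1.62, -1.56 and -1.56, Os05g0413200 at -1.40, -1.30 and -1.40, Os01g0282800 at -1.62, -1.14 and -1.04 and Os03g0661300 at -1.25, -0.98 and -1.13. The last missed the threshold with array centring (-0.99). The 4 listed cyclin genes, regulators of the cell cycle, fell to means between -1.65 ± 0.10 (Os12g0588800) and -1.26 ± 0.06 (Os01g0233500). All 8 kept their call with normexp and loess.

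The short-term ratios were then compared with those of 24 h, with the difference tested in the same limma fit. The 24-h arrays shared 1 slide of their own, so slide and exposure cannot be told apart in this difference. Of 21815 genes tested, 2007 (9.2%) had a higher and 2211 (10.1%) a lower ratio at 24 h than at short exposure. Of the 2529 genes upregulated with short exposure, 1390 were lower at 24 h and 76 were higher. Of the 1763 downregulated genes, 707 were higher at 24 h and 34 were lower. Since short-term calls entered this split, its directions are a description.

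All 10 listed aromatic amino acid genes were lower at 24 h, where their median was 0.20 in place of 1.62. The study chose this list on these arrays, as it did the diterpenoid, small heat shock protein, tubulin and cyclin lists. The directions of their differences are therefore a description. Of 8 JAZ genes, 7 were lower, with medians of 0.30 and 2.76. Of the hormone genes, 7 of 18 for jasmonate synthesis were lower and 1 was higher, 5 of 10 for ethylene were lower and 1 was higher, 3 of 9 for ABA were lower, and 3 of 6 for gibberellin were higher. Of 6 diterpenoid genes, 2 were lower and 2 were higher. Tryptophan synthase alpha stood at 0.01 after 24 h against 2.89 ± 0.28. The PGPS/D12 genes fell from 5.51 and 5.46 to -0.77 each. Of the small heat shock protein genes, 3 of 7 were lower, and Oshsp18.0 was not called different, with 6.77 at 24 h against 7.13 ± 0.50. With normexp and loess it was called lower at 24 h (difference -2.16).

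Of 11 metallothionein genes, 6 were higher at 24 h and 0 were lower. OsMT1-4a moved from 2.04 ± 0.26 to 5.42, OsMT1-4c from 0.74 ± 0.24 to 3.41 and OsMT1-4b from -0.84 ± 0.10 to 2.59. Of 10 PIP genes, 6 were higher at 24 h and 1 was lower. The lower gene, OsPIP2;8 (Os03g0861300), moved from -0.91 ± 0.18 to -3.29. OsPIP2;5 moved from -1.35 ± 0.18 to 2.09, OsPIP2;3 from -1.61 ± 0.17 to 0.49 and OsNIP2;1 from -1.51 ± 0.24 to 1.83. Of the NIP genes, 2 of 6 were higher and 1 was lower, and of the TIP genes 1 of 7 was higher. The listed cyclins were higher at 24 h in 4 of 4 genes, and the listed tubulins in 0 of 4.

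**Figure D5:**
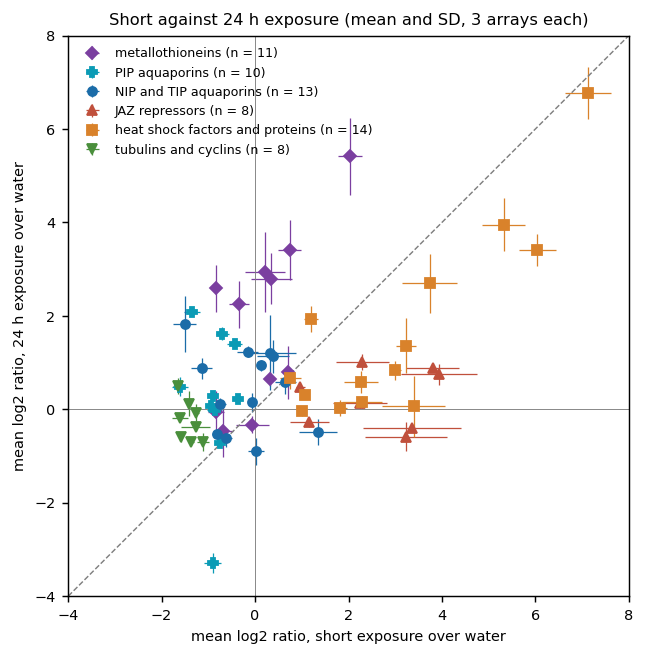
Mean log2 ratio over water at 24 h (vertical axis) against that at short exposure (horizontal axis) for all tested metallothionein, PIP, NIP, TIP and JAZ genes and for the chaperone, tubulin and cyclin genes that the text names, with SD bars over the arrays of each exposure and a dashed line of equal ratios. Of 11 metallothioneins, 6 were called higher at 24 h than at short exposure and 0 lower, of 10 PIP aquaporins 6 higher and 1 lower (OsPIP2;8, the lowest point), and of 8 JAZ repressors 7 lower.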

How the data were processed

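For every array a scanner file was deposited, beside a table of log2 values by the authors that equal the ratios of the processed signals. The intensity values, as deposited, were made by Agilent Feature Extraction (10.7.1.1), which subtracted background and normalized the dyes. The same program made the deposited log10 ratio of Hg over water. The members and gene lists were chosen with earlier results of these data known, and the study's list of changed genes was held in part.

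Here the log2 of processed Cy5 over Cy3 signals was used, without control and outlier spots. Of 41908 probes on 29690 loci, 10583 were left out because neither channel reached a signal of 100 on any array, a minimum from the study's methods. The brightest probe stood for its locus. Of 76 printed genes with several probes, the probes disagreed in 8. R 4.3.3 with limma 3.58.1 fitted all 6 arrays (4 residual degrees of freedom) and was tested on simulated data. The reference table paired 0 loci, so names come from the study's tables. Normexp (offset 50) used median spot signals, since the files hold no means. Named genes were the 15 highest and 15 lowest called genes that have a description and both channels above background, the 3 largest called members of each list, and all tested members of small lists. Alternatives covered the source of values, normalization, filters, probes, slide as a random block, the methods' t-test and leaving out each array. The p-values measure the spread between biological replicates.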

Additional observations from a re-analysis of the deposited data

Results flagged for a closer look

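The difference between exposures, given as the log2 ratio at 24 h minus that at short exposure, was called in the limma fit (adjusted p under 0.05 and at least 2-fold) for 40 of 57 genes examined, namely the 15 highest, the 15 lowest and all tested metallothionein, PIP and NIP genes. Slide and exposure cannot be told apart in these differences. The 15 highest and lowest genes were chosen by their short-term ratio, so for them the direction of the difference is a description.

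Among the highest genes, the PGPS/D12 genes Os03g0830500 and Os03g0830300 differed by -6.28 and -6.23. The receptor kinase-like gene Os08g0374600 differed by -4.27 and the C2H2 zinc finger gene Os03g0437200 by -4.17. The plastocyanin-like genes Os08g0482600 and Os08g0138200 differed by -4.15 and -3.26, alternative oxidase Os04g0600300 by -3.47, the proteinase inhibitor Os01g0615100 by -3.33 and peroxidase Os04g0688300 by -3.04. Oshsp17.3 (Os03g0266900) differed by -2.63 and the tau class transferase Os10g0525600 by -1.97. CYP99A1 (Os04g0180400) differed by -1.79 with an adjusted p of 0.049, a call that was lost with slide as a random block, with no signal filter and without each of several arrays.

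Among the lowest genes, the PR-1a gene Os02g0786900 differed by 4.21, the beta-expansin Os03g0102700 by 3.64, polygalacturonase PG2 (Os05g0578600) by 3.23 and the NAM/CUC2-like gene Os04g0515900 by 2.78. Glutamate decarboxylase (Os04g0447800) differed by 2.19, the ARM repeat gene Os02g0168400 by 2.15, the antiporter Os12g0132500 by 1.86 and peroxidase 43 (Os12g0191500) by 1.83. Smaller differences were 1.32 for the family 28 hydrolase Os01g0636500, 1.24 for the root cap gene Os04g0410400, 1.09 for the amine oxidase Os01g0710200 and 1.06 for the extensin-like gene Os05g0552600.

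The metallothionein genes OsMT1-4b, OsMT1-4a and OsMT1-4c differed by 3.44, 3.38 and 2.67, and OsMT1-2b, OsMT1-2c and OsMT1-2a by 2.73, 2.60 and 2.45. The aquaporin genes OsPIP2;5, OsPIP1;3, OsPIP2;3, OsPIP2;4, OsPIP1;1 and OsPIP2;2 differed by 3.44, 2.32, 2.09, 1.83, 1.20 and 1.03. OsPIP2;8 (Os03g0861300) differed by -2.38, with an adjusted p of 0.00029. OsNIP2;1 differed by 3.34, OsNIP3;1 by 1.39 and OsNIP1;3 by -1.84. OsMT1-4b, OsMT1-2c, OsPIP2;5, OsPIP1;3, OsPIP2;3, OsPIP2;4, OsPIP1;1, OsPIP2;2 and OsNIP2;1 were among the genes below water on every array at short exposure. Their means at 24 h were above water, although OsPIP2;3, OsPIP1;1 and OsPIP2;2 reached only 0.49, 0.29 and 0.08 there. At short exposure, OsMT1-2c had a mean of only -0.35 and was not told apart from water (adjusted p = 0.14, limma).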

How the results depend on the processing

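The numbers of called genes changed with the test, with normexp and loess (which replaces the signal, background correction and normalization together), with the signal filter and with the fold threshold. At short exposure, with 2529 genes up and 1763 down, normexp with loess called 442 down, the methods' t-test after Benjamini-Hochberg adjustment called 918 up and 495 down, a restriction to genes with both channels well above background called 1637 and 1122 of 17980 tested, and no fold threshold gave 6035 and 8922. For the 24-h difference, normexp with loess called 1140 genes higher in place of 2007, and no fold threshold gave 5702 higher and 5217 lower. Over all family lists, 422 genes were called up and 244 down. The t-test gave 136 and 79, and normexp with loess 67 down. The cause of these shifts was not tested, beyond the fewer genes tested or the absent threshold. Leaving out 1 array at a time gave 2363 to 2634 genes up and 1517 to 1978 down at short exposure, and 1828 to 2101 higher and 2049 to 2250 lower at 24 h.

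The difference of Os04g0449200 between exposures, 0.08 and not called, lay between -0.30 and 0.32 with 1 array left out. That of ent-kaurene oxidase Os06g0569500, -0.79 and not called, lay between -1.90 and 0.12 with 1 array left out, and was called with normexp and loess (-1.96, adjusted p = 0.0014) and without 24-h replicate 3 (-1.90, adjusted p = 0.033). Those of OsPIP2;6 (0.03) and OsMT1-3b (0.08), not called, were -0.034 with array centring and -0.024 with normexp and loess, and lay between -0.00062 and 0.054 and between -0.18 and 0.39 with 1 array left out. Of 148 genes examined singly and called at short exposure, 88 kept their call under all alternatives, 55 lost it with the t-test and 8 with normexp and loess, and 0 changed direction. Replicate numbers are shared between exposures, and the deviations of same-numbered arrays correlated by -0.24, 0.02 and -0.18. Deviations from means of only 3 arrays cannot show whether the numbers pair the arrays. With the replicate block, 1929 genes were higher and 2155 lower at 24 h. Genes whose water signal was above background on no array are given as bounds. Those with 1 or 2 such arrays are given as measured ratios, which signal near background limits and which were in most cases lower with normexp and loess.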

Other observations

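Receptor-like kinases, which carry an outer domain that senses signals, differed by subfamily. Of 28 tested genes with the cysteine-rich DUF26 domain, 16 (57.1%) were upregulated and 0 were downregulated with short-term Hg exposure, and 10 were upregulated with normexp and loess. Of 11 LRK10L-2 genes, 8 (72.7%) were upregulated, and 4 with normexp and loess. With both channels required above background, 6 and 2 genes were called up, beside 1637 of 17980 tested over all genes. The numbers of members tested there are not given, so these counts are not shares. The L-LEC, WAK and SD subfamilies also lay above the background, with 31.6%, 34.3% and 32.6% upregulated. Leucine-rich repeat (LRR) kinases were split. LRR-VIII gave 8 up (29.6%) and 0 down of 27, LRR-XII 7 up (35%) and 1 down of 20. LRR-XI gave 2 up and 4 down of 26. The LRR kinases outside these 3 subfamilies gave 11 up (9.48%) and 24 down (20.7%) of 116 tested, and 9 up and 7 down with normexp and loess. The background of all genes was 11.6% up and 8.08% down.

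Peroxidases of the study's list gave 12 up and 10 down of 23 (12 and 8 with normexp and loess). Listed RING and U box genes, which mark proteins for degradation, gave 22 up and 4 down of 26 (21 and 3 with normexp and loess). The hexose transporter gene Os03g0218400 stood at 4.42, 3.38 and 4.13 on replicates 1, 2 and 3 (adjusted p = 3.6e-05, limma).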
